A study of Mus musculus with 24 samples.

Results

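The enzymes that activate fatty acids and oxidise them were examined in *M. gastrocnemius*, a mixed calf muscle, after 6 h of mild hypoxia. The list held 37 genes for activation, malonyl-CoA control, carnitine transfer and the mitochondrial and peroxisomal cycles of β-oxidation. A gene was taken as measured when the mean Cy5 signal of a probe was over 2 times the local background over the 24 arrays, which held for 35 of the 37 genes among 9139 genes tested. *Acad8* and *Acsl5* did not reach this signal and are not compared. The muscles came from male C57BL/6JOlaHsd mice that arrived at 10 weeks of age, received a low-fat diet (10% energy from fat) for 3 weeks and a high-fat diet (40% energy from fat) for 6 weeks, and were fasted. The Norm group (n = 12) breathed 20.9% oxygen and the Hypox group (n = 12) breathed 12% oxygen. Diet, strain and fasting were shared by both groups. On each array the Cy5 channel read 1 mouse and the Cy3 channel a pool made from every sample. A value is the log2 ratio of the 2 channels after normalization within the array. Its 0 is not the pool's level of a gene, since *Ech1* was below 0 on every array (highest, -0.32 in Norm and -0.21 in Hypox). Values are therefore compared between the groups.

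Long-chain fatty acids are joined to coenzyme A at outer membranes, moved across the inner mitochondrial membrane as carnitine esters, and shortened in repeated rounds of dehydrogenation, hydration, a second dehydrogenation and thiolysis. Malonyl-CoA blocks the entry step, and isomerases and a reductase let unsaturated chains pass through the cycle. Peroxisomes run a similar cycle on very long and branched chains. Muscle of fasted animals relies on this pathway for much of its ATP, and each round needs oxygen to take up its electrons.

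The rise in Hypox was small and lay in 6 of the enzymes, spread over 4 steps. The double-bond enzymes *Ech1* and *Eci2*, the long-chain dehydrogenase *Acadl*, the carnitine transferases *Cpt2* and *Cpt1a* and the trifunctional α-subunit *Hadha* were higher at a P-value under 0.05 by limma, which is the threshold used throughout for "rose" and is not adjusted. They were 6 of 35 enzymes (17.1%), and 0 enzymes fell. Over all genes tested, 12.2% passed in either direction, 7.17% as higher and 5.07% as lower in Hypox. None of the 35 passed with Benjamini-Hochberg adjustment over all genes by limma or by the methods' t-test, a level that 0.339% of all genes reached by limma. The t-test of the methods called 5 of the enzymes at the unadjusted threshold, beside 12.2% of all genes. In log2 fold change 23 enzymes were above 0 (65.7%) and 12 below, beside 58.8% of all genes above 0. The median was 0.06 beside 0.03 over all genes. Per step, both carnitine transferases stood among 5 measured genes, *Acadl* among 7 dehydrogenases, *Hadha* among 6 enzymes of hydration to thiolysis, and *Ech1* and *Eci2* among 4 enzymes of double-bond handling, while 0 of 4 activating, 0 of 2 malonyl-CoA, 0 of 3 electron transfer and 0 of 4 peroxisomal cycle enzymes passed.

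**Figure D1:**
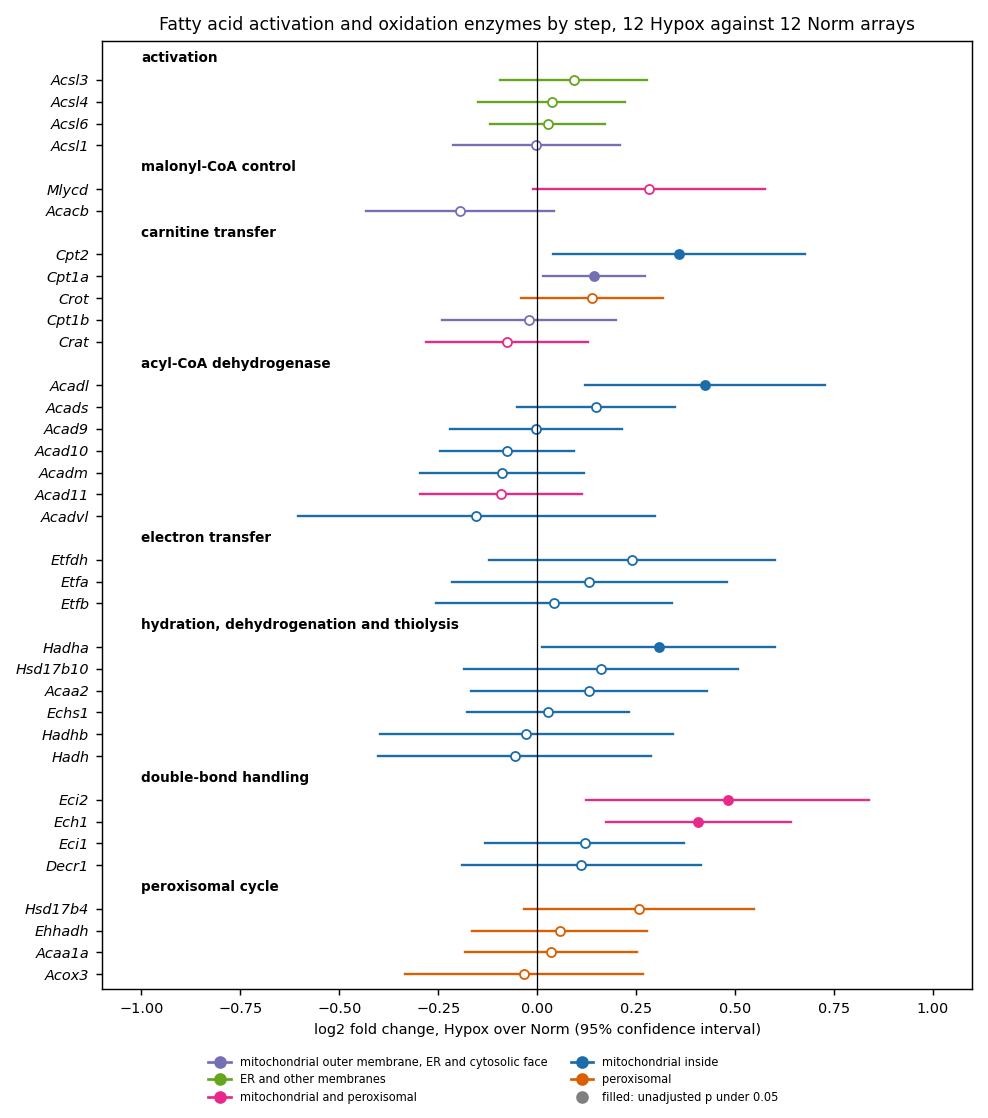
Log2 fold change of Hypox over Norm (x axis, points) with 95% confidence intervals (lines) for the 35 measured enzymes, grouped by step and coloured by the site of the protein. The 6 filled points passed an unadjusted P-value of 0.05 and all lie to the right of 0, with *Eci2* farthest at 0.48 and the acyl-CoA dehydrogenases mostly left of 0 apart from *Acadl* and *Acads*.

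Promoter sequences from RefSeq (GRCm38.p6, 250 bases before to 50 after a gene's start) were at hand for 31 of the 37 genes in 34 windows of 300 bases. They are shown for the members that stayed over the threshold most often (*Ech1*, chr7:28825088-28825387, plus strand; *Eci2*, chr13:34994095-34994394, minus strand; *Acadl*, chr1:66863260-66863559, minus strand), for *Cpt1a* (chr19:3323051-3323350, plus strand), the only one of the 6 risen enzymes whose window held the hexamer bound by many nuclear receptors, and for the head-to-head pair *Hadha* (chr5:30154931-30155230, minus strand) and *Hadhb* (chr5:30155003-30155302, plus strand). Capitals mark this hexamer in *Cpt1a*, read on the opposite strand, and in *Hadha* and *Hadhb* the 228 bases that both windows share.
Ech1: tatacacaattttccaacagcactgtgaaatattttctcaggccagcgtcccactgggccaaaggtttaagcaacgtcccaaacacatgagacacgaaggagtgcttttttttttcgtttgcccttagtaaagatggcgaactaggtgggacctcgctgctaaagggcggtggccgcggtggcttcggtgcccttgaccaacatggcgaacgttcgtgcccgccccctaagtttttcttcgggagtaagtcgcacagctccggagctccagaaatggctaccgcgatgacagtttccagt
Eci2: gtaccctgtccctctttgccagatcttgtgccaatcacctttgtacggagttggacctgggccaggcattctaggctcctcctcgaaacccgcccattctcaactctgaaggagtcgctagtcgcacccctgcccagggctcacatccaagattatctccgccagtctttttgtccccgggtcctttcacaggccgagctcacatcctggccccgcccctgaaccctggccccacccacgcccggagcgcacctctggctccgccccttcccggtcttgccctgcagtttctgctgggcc
Acadl: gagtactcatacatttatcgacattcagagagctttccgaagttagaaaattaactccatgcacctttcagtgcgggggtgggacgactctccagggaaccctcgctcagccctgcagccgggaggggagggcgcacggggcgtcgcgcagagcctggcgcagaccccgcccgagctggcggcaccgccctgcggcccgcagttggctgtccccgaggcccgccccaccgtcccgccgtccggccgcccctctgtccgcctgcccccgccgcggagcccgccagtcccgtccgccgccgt
Cpt1a: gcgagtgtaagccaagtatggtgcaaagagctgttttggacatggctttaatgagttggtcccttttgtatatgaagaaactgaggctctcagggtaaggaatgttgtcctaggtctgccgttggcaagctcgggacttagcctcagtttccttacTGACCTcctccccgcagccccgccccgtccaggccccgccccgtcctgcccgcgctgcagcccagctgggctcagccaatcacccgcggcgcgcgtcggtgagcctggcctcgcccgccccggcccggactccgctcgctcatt
Hadha: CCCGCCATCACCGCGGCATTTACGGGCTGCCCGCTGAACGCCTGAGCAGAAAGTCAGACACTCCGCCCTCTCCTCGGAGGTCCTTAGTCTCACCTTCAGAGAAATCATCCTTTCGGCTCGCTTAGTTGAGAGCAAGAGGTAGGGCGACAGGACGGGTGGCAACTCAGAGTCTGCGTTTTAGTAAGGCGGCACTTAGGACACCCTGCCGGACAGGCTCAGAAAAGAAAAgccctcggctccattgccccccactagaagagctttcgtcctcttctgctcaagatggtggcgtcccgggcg
Hadhb: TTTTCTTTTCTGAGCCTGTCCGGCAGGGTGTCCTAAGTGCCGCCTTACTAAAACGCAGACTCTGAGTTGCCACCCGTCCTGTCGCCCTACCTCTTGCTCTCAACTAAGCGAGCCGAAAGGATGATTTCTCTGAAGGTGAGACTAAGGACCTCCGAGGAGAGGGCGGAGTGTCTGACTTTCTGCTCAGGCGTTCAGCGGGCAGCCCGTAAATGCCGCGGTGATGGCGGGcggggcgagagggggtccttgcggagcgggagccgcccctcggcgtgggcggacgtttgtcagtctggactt
The hexamer AGGTCA, searched on both strands, stood in 6 of the 34 windows (17.6%) and in 16.3% of 32851 windows of all genes. The extended site TNAAGGTCA, which contains the hexamer, stood in 1 window of the enzymes, of *Acsl6*, and in 1.28% of all, and the direct repeat of the hexamer with 1 base between in 0 of 34 and in 0.0396% of all. For the core of the hypoxia response element, the form ACGTG was searched and the form GCGTG was not. ACGTG stood in 2 of 34 windows (5.88%), those of *Acacb* and *Acadvl*, and in 19.6% of all windows. These are matches of letters within short windows and say nothing of binding.

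Before the values, 3 arrays need to be named because they hold the extremes of many enzymes. The log2 ratios of Hypox replicate 2 scattered around the mean of the other arrays with an SD of 0.57 over all genes tested, those of Hypox replicate 12 with 0.46, and those of the other 22 arrays with 0.19 to 0.39. On Hypox replicate 2, 10 of the 35 enzymes (28.6%) stood over 1 above their mean on the log2 scale, beside 9.41% of all genes. They were *Cpt2*, *Hsd17b10*, *Mlycd*, *Hadh*, *Eci2*, *Etfdh*, *Hadha*, *Etfa*, *Hsd17b4* and *Acadl*, and all 10 were below their mean on Hypox replicate 12, by 0.16 to 1.23. Norm replicate 5 was the lowest of the 24 arrays for 15 of the 35 enzymes and below the mean for 29 of them, beside 55.1% of all genes. It also had the lowest slow fiber markers, with a mean of -1.71 against the mean over arrays, where the next array stood at -0.53. The 6 rises and the differences of *Mlycd*, *Hsd17b4* and *Etfdh* are given with and without these arrays.

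**Figure D2:**
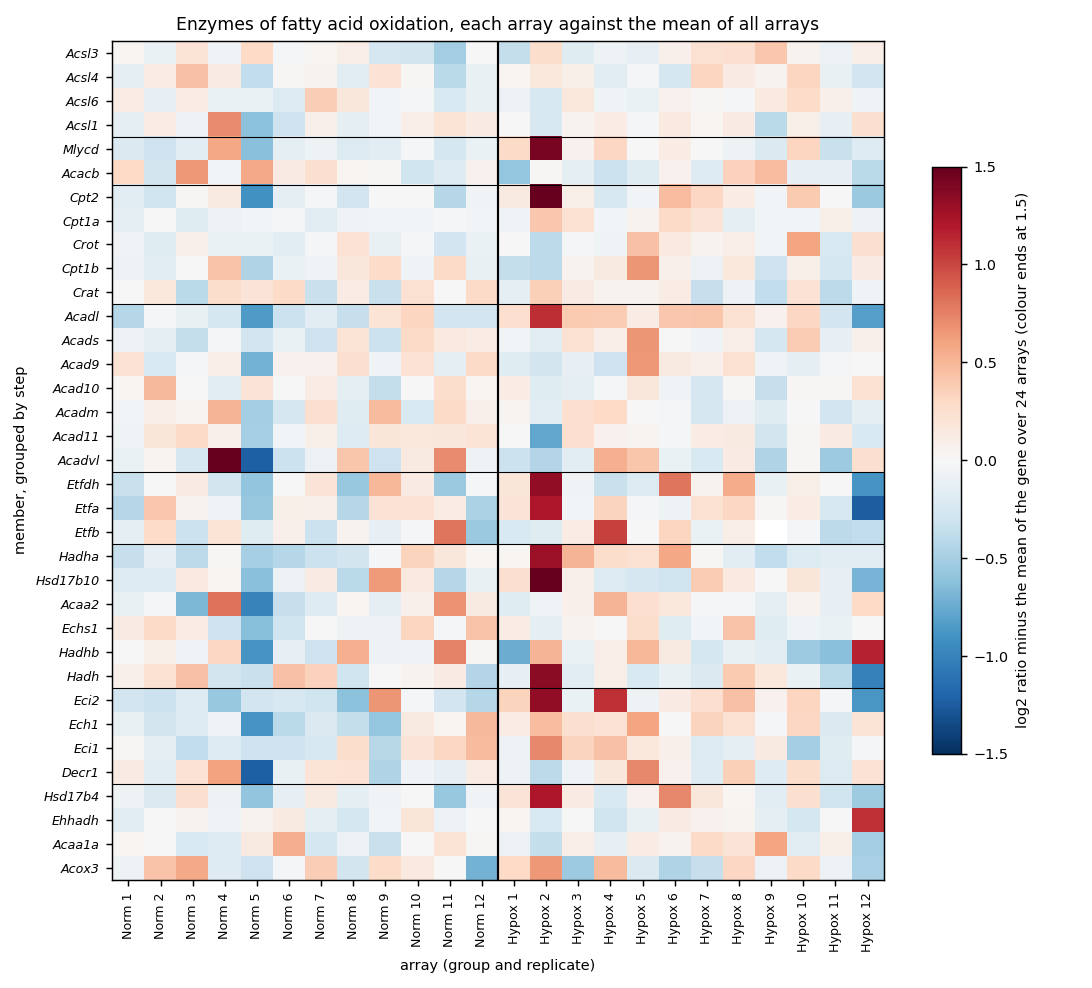
Log2 ratio of each measured enzyme (rows, in the order of the steps) on each of the 24 arrays (columns), minus the mean of the enzyme over the arrays, in red above and blue below that mean, with 1 missing value left white. Hypox replicate 2 shows 10 enzymes over 1 and Hypox replicate 12 shows the same 10 below 0, and Norm replicate 5 is below 0 in 29 of 35 enzymes.

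Enzymes that handle double bonds held the clearest difference. *Ech1*, the dienoyl-CoA isomerase of mitochondria and peroxisomes, had a Norm median of -1.02 (lowest to highest array, -1.69 to -0.32) and a Hypox median of -0.58 (-1.03 to -0.21). The groups overlapped, but 11 of 12 Hypox arrays lay above the Norm median. *Ech1* rose by a log2 fold change of 0.41 ± 0.11 (SE), a fold of 1.33 (limma P-value = 0.00138, adjusted P-value = 0.117), and the Hypox mean was the higher one on 6 of 6 slides. *Eci2*, the isomerase that moves double bonds in both organelles, had a Norm median of -0.10 (-0.42 to 0.86) and a Hypox median of 0.38 (-0.69 to 1.52). Its lowest and highest Hypox values were those of replicates 12 and 2, and 11 of 12 Hypox arrays lay above the Norm median. *Eci2* rose by 0.48 ± 0.17, a fold of 1.40 (P-value = 0.0101, adjusted P-value = 0.243), and was higher on 5 of 6 slides. *Eci1*, the mitochondrial isomerase, differed by 0.12 (P-value = 0.336) and *Decr1*, the mitochondrial dienoyl-CoA reductase, by 0.11 (P-value = 0.457). All 4 enzymes of this step were above 0, as were 58.8% of all genes. Their median was 0.26, and their mean over the arrays was higher in Hypox on 6 of 6 slides, by 0.08 to 0.45.

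Among the acyl-CoA dehydrogenases, which begin each round of the cycle, 1 of 7 rose. *Acadl*, which acts on long chains, had a Norm median of -0.05 (-0.63 to 0.55) and a Hypox median of 0.50 (-0.61 to 1.33). Both groups thus reached as low, on Norm replicate 5 and Hypox replicate 12, while 5 Hypox arrays lay above every Norm array. *Acadl* rose by 0.42 ± 0.15, a fold of 1.34 (P-value = 0.00774, adjusted P-value = 0.224), with the higher mean in Hypox on 6 of 6 slides. *Acadvl*, the membrane-bound enzyme for the longest chains, had a Norm median of 0.43 (-0.71 to 2.51) and a Hypox median of 0.38 (-0.03 to 1.05). The Norm group spanned the whole Hypox range, with its highest value on replicate 4 and its lowest on replicate 5. The difference of -0.15 had a 95% confidence interval of -0.61 to 0.30 (P-value = 0.491), which overlaps that of *Acadl* (0.12 to 0.73). *Acadm*, for medium chains, had a Norm median of -0.15 (-0.72 to 0.30) and a Hypox median of -0.27 (-0.50 to 0.09). Its difference of -0.09 had an interval of -0.29 to 0.12 (P-value = 0.393). *Acads*, for short chains, differed by 0.15 (P-value = 0.137), and *Acad9*, *Acad10* and *Acad11* by values between -0.09 and 0.00, with P-values of at least 0.362. The median of the step was -0.08, and its mean was higher in Hypox on 3 of 6 slides. This median changed sign with the scaling, to 0.16 in the deposited log2 values, where all 7 were above 0 and *Acadvl* stood at 0.27, and to 0.33 with arrays centred on their median. These scalings moved all genes upwards as well. The median of all genes was 0.08 in the deposited values, with 66.9% above 0, and 0.25 with median centring, with 96.5% above 0.

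Carnitine transfer held 2 of the risen enzymes. *Cpt2*, which returns the chain from carnitine to coenzyme A inside the mitochondrion, had a Norm median of 0.25 (-0.57 to 0.48) and a Hypox median of 0.44 (-0.21 to 1.88). The highest value was that of Hypox replicate 2, and 10 of 12 Hypox arrays were above the Norm median. *Cpt2* rose by 0.36 ± 0.16 (P-value = 0.0288). *Cpt1a*, the liver-type transferase of the outer membrane, had a Norm median of -0.05 (-0.19 to -0.01) and a Hypox median of 0.00 (-0.15 to 0.40). Of the Hypox arrays, 6 lay above every Norm array and 6 within the Norm range. *Cpt1a* rose by 0.14 ± 0.06 (P-value = 0.0294). Its probe is dim, with a Cy5 signal of 3.15 times the background and well above background on 8 Norm and 9 Hypox arrays. The narrow spread depends on the processing. From the scanner software's processed signals the difference was 0.21 ± 0.17 (limma P-value = 0.223). *Cpt1b*, the muscle-type transferase, had a Norm median of 0.23 (-0.15 to 0.72) and a Hypox median of 0.36 (-0.10 to 0.96). The ranges overlapped almost whole, and the difference of -0.02 had an interval of -0.24 to 0.20 (P-value = 0.851). *Crat*, which acts on acetyl groups, differed by -0.08 (P-value = 0.451) and *Crot*, the peroxisomal transferase for medium chains, by 0.14 (P-value = 0.126).

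The trifunctional protein joins hydration, the second dehydrogenation and thiolysis for long chains, and 1 of its 2 subunits rose. *Hadha*, the α-subunit, had a Norm median of -0.63 (-0.94 to -0.10) and a Hypox median of -0.41 (-0.81 to 0.86). The ranges overlapped below -0.10, and 3 Hypox arrays lay above every Norm array. *Hadha* rose by 0.31 ± 0.14 (P-value = 0.0413), with the higher mean in Hypox on 5 of 6 slides. *Hadhb*, the β-subunit, had a Norm median of 0.39 (-0.47 to 1.16) and a Hypox median of 0.31 (-0.33 to 1.57). Its difference of -0.03 had an interval of -0.40 to 0.34 (P-value = 0.881), with the highest value on Hypox replicate 12. Of the single enzymes, *Echs1* (hydratase) differed by 0.03, *Hadh* (dehydrogenase for shorter chains) by -0.06, *Hsd17b10* (a related dehydrogenase) by 0.16 and *Acaa2* (thiolase) by 0.13, with P-values of at least 0.350.

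**Figure D3:**
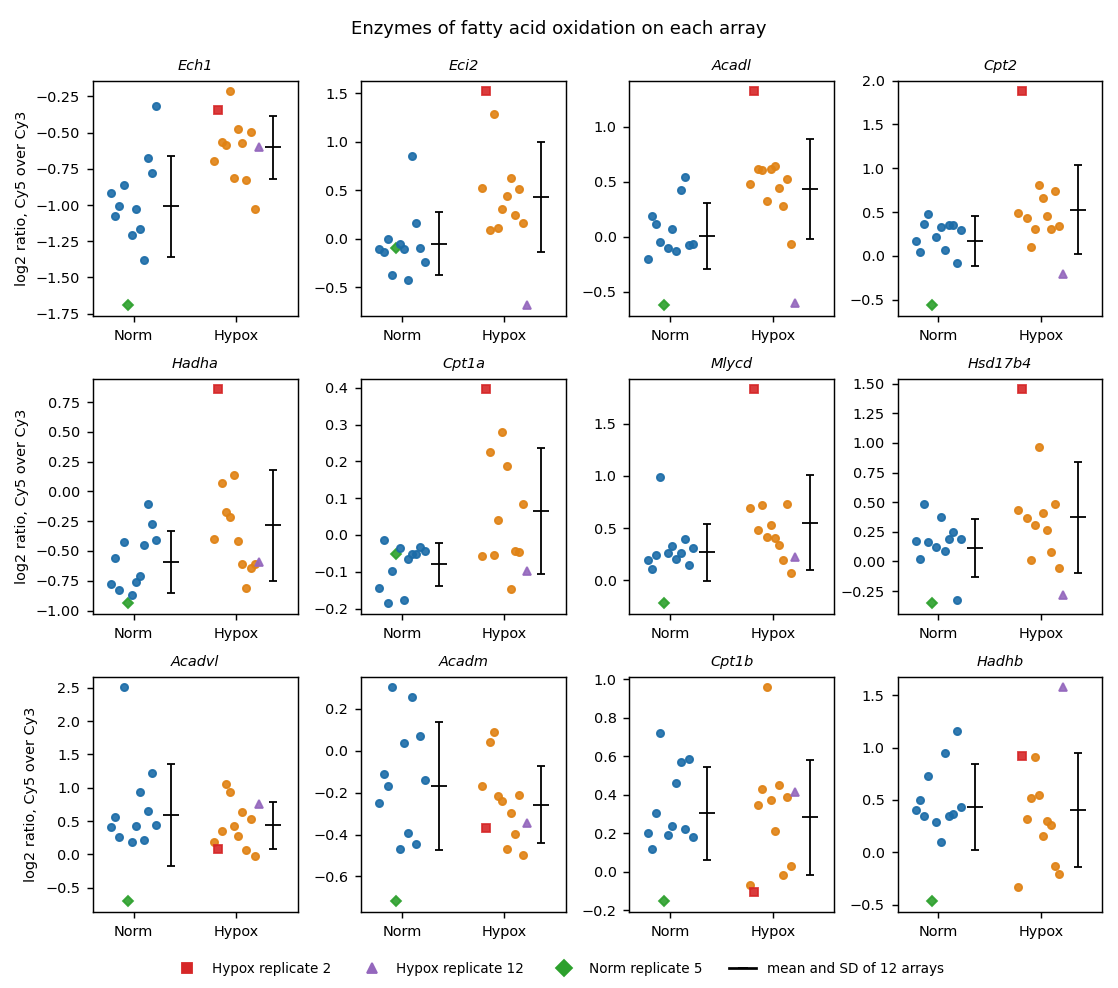
Log2 ratio of Cy5 over Cy3 (y axis) on each Norm and Hypox array for 12 enzymes, with the mean and SD of the 12 arrays of a group in black. The first 6 panels are the enzymes that rose, where Hypox replicate 2 (red square) holds the highest value of *Eci2*, *Acadl*, *Cpt2*, *Hadha* and *Cpt1a* but not of *Ech1*, and Norm replicate 5 (green diamond) the lowest of *Ech1*, *Acadl*, *Cpt2* and *Hadha*.

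The enzymes upstream of transfer did not pass. *Mlycd*, which breaks down malonyl-CoA, had a Norm median of 0.25 (-0.22 to 0.99) and a Hypox median of 0.45 (0.07 to 1.83), and differed by 0.28 ± 0.14 (P-value = 0.0580). *Acacb*, the carboxylase that makes malonyl-CoA at the outer membrane, differed by -0.20 ± 0.12 (P-value = 0.104). The groups overlapped for both genes, and 9 of 12 Hypox arrays lay above the Norm median of *Mlycd*. Of the acyl-CoA synthetases, *Acsl3* had the largest difference and had a Norm median of 0.08 (-0.43 to 0.38) and a Hypox median of 0.15 (-0.27 to 0.49), a difference of 0.09 (P-value = 0.317). *Acsl1*, the main synthetase of muscle, differed by 0.00, with an interval of -0.21 to 0.21, and *Acsl4* and *Acsl6* by 0.04 and 0.03.

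The electron carriers that link the dehydrogenases to the respiratory chain were above 0 without passing. *Etfdh*, the oxidoreductase of the inner membrane, had a Norm median of 0.22 (-0.36 to 0.74) and a Hypox median of 0.26 (-0.65 to 1.56), a difference of 0.24 ± 0.18 (P-value = 0.185), with both Hypox extremes on replicates 12 and 2. *Etfa* differed by 0.13 (P-value = 0.444) and *Etfb*, with 11 Hypox values, by 0.04 (P-value = 0.765). In the peroxisomal cycle, *Hsd17b4*, the D-bifunctional protein, had a Norm median of 0.17 (-0.35 to 0.49) and a Hypox median of 0.34 (-0.29 to 1.45), a difference of 0.26 ± 0.14 (P-value = 0.0815). *Acox3* (an oxidase), *Ehhadh* (the L-bifunctional protein) and *Acaa1a* (thiolase) differed by -0.03, 0.06 and 0.03, with P-values of at least 0.604.

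By the site of the protein, 3 of 18 genes of the mitochondrial interior rose (*Acadl*, *Cpt2*, *Hadha*; median 0.12), 2 of 5 found in mitochondria and peroxisomes (*Ech1*, *Eci2*; median 0.28), 1 of 4 at the outer membrane and its cytosolic face (*Cpt1a*; median -0.01), 0 of 3 at the endoplasmic reticulum and other membranes (median 0.04) and 0 of 5 that are peroxisomal alone (median 0.06). The risen genes with a peroxisomal share were thus those shared with mitochondria, and the counts are too small to rank the sites. Over all genes tested, 7.17% rose and the median was 0.03.

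Differences between partner enzymes were compared on each array, since both genes are then read from the same RNA. The 7 pairs were chosen after their values were seen, most of them to set a risen enzyme beside a partner that had not passed. A permutation test over the arrays was run on them. Its P-values are not used, because the pairs were picked from these same data, and the shifts are a description. *Ech1* minus *Echs1* had a mean of -0.55 ± 0.23 in Norm (SD, n = 12) against -0.17 ± 0.22 in Hypox (SD, n = 12) and shifted by 0.38. *Acadl* minus *Acadm* had a mean of 0.18 ± 0.33 in Norm against 0.69 ± 0.45 in Hypox and shifted by 0.51. Both shifts had the same sign on 6 of 6 slides. For the other 5 pairs the shift was 0.58 (*Acadl* minus *Acadvl*), 0.48 (*Mlycd* minus *Acacb*), 0.38 (*Cpt2* minus *Cpt1b*), 0.36 (*Eci2* minus *Eci1*) and 0.33 (*Hadha* minus *Hadhb*), with the same sign on 4 or 5 of 6 slides. In the last pair Hypox replicate 12 alone was at -2.17. Without Hypox replicates 2 and 12 and Norm replicate 5 the shift of *Hadha* minus *Hadhb* was 0.47, that of *Acadl* minus *Acadvl* 0.65, that of *Mlycd* minus *Acacb* 0.28, that of *Ech1* minus *Echs1* 0.33 and that of *Acadl* minus *Acadm* 0.50.

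**Figure D4:**
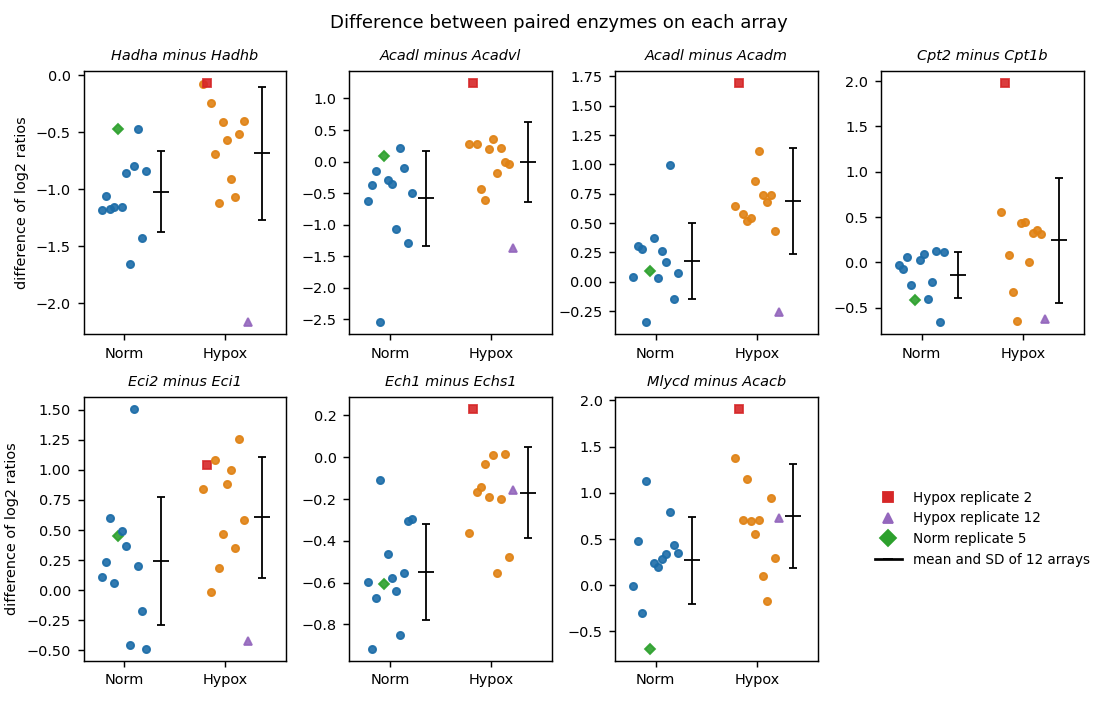
Difference of the log2 ratios of partner enzymes (y axis) on each Norm and Hypox array, with the mean and SD of a group in black. *Acadl* minus *Acadm* and *Ech1* minus *Echs1* are shifted upwards in Hypox, by 0.51 and 0.38, while Hypox replicate 12 (purple triangle) is the lowest point of *Hadha* minus *Hadhb* at -2.17.

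How far the 6 rises rest on single arrays differed between the enzymes. *Ech1*, *Eci2* and *Acadl* passed in each of the 24 fits that left out 1 array, with log2 fold changes of 0.35 to 0.47, 0.38 to 0.58 and 0.34 to 0.52. Without Hypox replicates 2 and 12 and Norm replicate 5 together they stood at 0.32 (P-value = 0.00669), 0.48 (P-value = 0.00190) and 0.38 (P-value = 0.000607). *Cpt2* was lost without Norm replicate 5 (0.29, P-value = 0.0617), was 0.24 (P-value = 0.0472) without Hypox replicate 2, and was 0.23 (P-value = 0.0127) without the 3 arrays. *Cpt1a* was lost without Hypox replicate 2, 3 or 6, at 0.11 to 0.13, and was 0.13 (P-value = 0.0437) without the 3 arrays. *Hadha* was lost without any of 11 arrays, namely Hypox replicates 2 to 6 and Norm replicates 1, 3 and 5 to 8, at 0.20 to 0.30, and was 0.19 (P-value = 0.108) without the 3 arrays. In the other direction, *Mlycd* passed without Norm replicate 4 or Hypox replicate 9, 11 or 12, *Hsd17b4* without Hypox replicate 11 or 12, *Crot* without Hypox replicate 2 (0.18, P-value = 0.0356), and *Acacb*, as lower, without Hypox replicate 9 (-0.25, P-value = 0.0356). Of the enzymes that had not passed, *Mlycd*, *Hsd17b4* and *Etfdh* had smaller differences without Hypox replicate 2, where *Mlycd* was 0.17 (P-value = 0.111), *Hsd17b4* 0.16 (P-value = 0.179) and *Etfdh* 0.13 (P-value = 0.398), and without the 3 arrays they were 0.14, 0.17 and 0.18.

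Which enzymes passed also changed with the processing. In the deposited log2 values, 32 of 35 enzymes were above 0, beside 66.9% of all genes, and 30 were above the median of all genes (0.08). The main values had 23 and 21. From the scanner software's own processed signals, *Ech1* (0.42) and *Eci2* (0.30) passed and *Acadl* (0.18, P-value = 0.125) and *Cpt2* (0.21, P-value = 0.140) did not, beside 11.1% of all genes in either direction. In the deposited log2 values only *Ech1* passed by limma (0.66, P-value = 0.0332), beside 5.35% of all genes, with *Acadl* at 0.62 (P-value = 0.0659). The methods' t-test on the deposited values called *Ech1* and *Cpt1a*, beside 5.65% of all genes. In the Cy5 channel alone *Acadl*, *Ech1*, *Eci2*, *Hadha* and *Mlycd* passed, beside 8.01% of all genes. Centring each array on its median without loess moved the median of all genes to 0.25 and that of the enzymes to 0.45, with wide intervals and 0 enzymes past the threshold, beside 0.35% of all genes. With the arrays weighted by their scatter, *Acadl* (0.43, adjusted P-value = 0.0392) and *Eci2* (0.46, adjusted P-value = 0.0361) were past the adjusted threshold, as were 277 of all 9139 genes, beside 31 under the main processing.

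**Figure D5:**
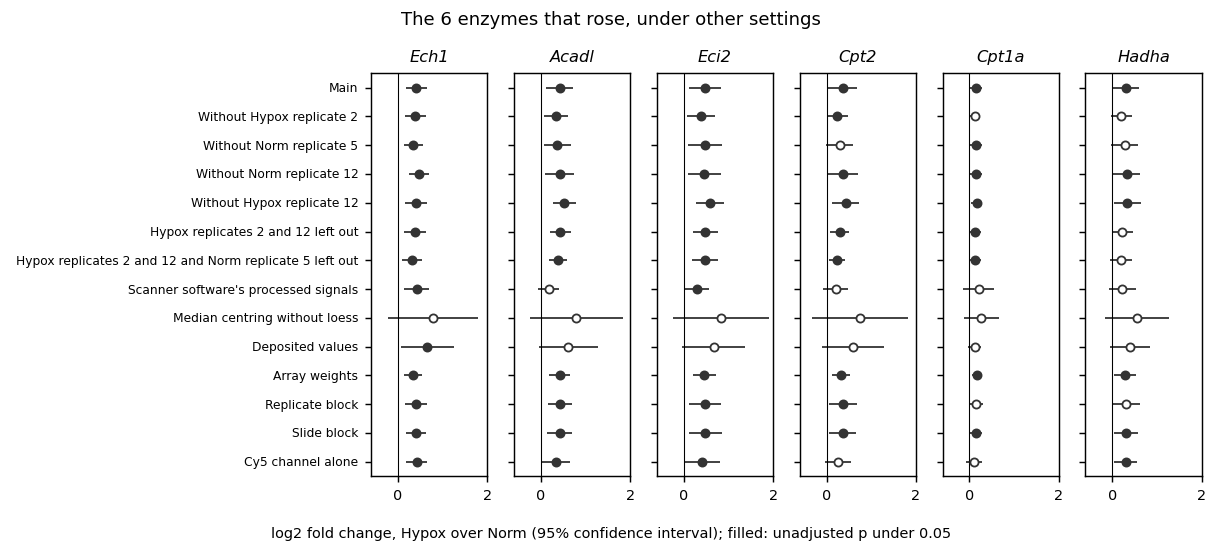
Log2 fold change of Hypox over Norm (x axis) with its 95% confidence interval for the 6 enzymes that rose, under the main processing (top row) and 13 other settings (rows), filled where the unadjusted P-value was under 0.05. All points are right of 0, *Ech1* is filled in every row but median centring, and *Hadha* and *Cpt1a* are open in many rows.

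A second probe over the background limit existed for 6 of the measured genes (*Acacb*, *Acox3*, *Acsl1*, *Cpt1b*, *Decr1*, *Etfa*), and none of these passed, with log2 fold changes between -0.13 and 0.12. For the risen genes the second probes of *Cpt2* (0.01) and *Cpt1a* (0.02) were under the limit, at 1.68 and 1.36 times the background, and cannot serve as a check. *Ech1*, *Eci2*, *Acadl* and *Hadha* had 1 probe each. Per the file headers these lie in the mouse build mm9 at chr7:29616256-29616416 (*Ech1*), chr13:35069638-35069697 (*Eci2*), chr1:66877673-66877732 (*Acadl*) and chr5:30446215-30446274 (*Hadha*).

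Other genes of fatty acid use, which are no enzymes of the list, were read beside the enzymes. Of 36 such genes 29 were measured, 4 rose and 1 fell (17.2% of the 29, beside 12.2% of all genes), and the median log2 fold change was 0.06. The 4 were *Cd36*, a fatty acid transporter of the cell surface (0.29, P-value = 0.0207), *Slc25a20*, the carnitine-acylcarnitine carrier between *Cpt1* and *Cpt2* (0.26, P-value = 0.0128), *Acsf3*, a mitochondrial malonyl-CoA synthetase (0.28, P-value = 0.0139), and *Nudt7*, a peroxisomal coenzyme A hydrolase (0.22, P-value = 0.0215). *Etfbkmt*, which methylates the β-subunit of the electron transfer flavoprotein, fell by 0.24 (P-value = 0.00978). None of the 29 passed with adjustment by limma, and the named genes had adjusted P-values of 0.241 to 0.301.

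Markers of fiber types and of other cells moved with the groups. In bulk RNA, fewer cells of a type and less RNA per cell cannot be told apart. Over all genes tested, 58.8% were above 0, 7.17% rose and 5.07% fell. All 9 slow fiber markers, from fibers rich in mitochondria, were above 0 and 3 rose (*Tnni1*, *Tnnc1*, *Casq2*), with a median of 0.34. All 9 were also above 0 under each of the 4 other scalings, beside 48% to 96.5% of all genes. Their mean lay between -1.71 and 0.73 on the Norm arrays and between 0.01 and 0.35 on the Hypox arrays, and without Norm replicate 5 the median was 0.18, with 7 of 9 above 0. Of the 9 fast fiber markers 7 were below 0 and 1 rose (*Mylpf*), but the direction turned with the scaling, with 5 of 9 above 0 in the processed signals and the Cy5 channel alone and 9 of 9 in the deposited values. All 5 measured genes of the adipocyte list were below 0 and 3 fell (*Adipoq*, *Car3*, *Cfd*; median -0.33). Of these, *Car3* is not particular to fat cells, since muscle fibers express it too. All 6 nerve markers were below 0, with *Mbp* at -0.0008, and 3 fell (median -0.20). Of 4 measured endothelial markers 3 rose (*Cdh5*, *Cldn5*, *Esam*; median 0.29). With median centring 2 of 5 adipocyte and 3 of 6 nerve markers were above 0, beside 96.5% of all genes. There, 0 adipocyte and 0 nerve markers were above the median of all genes (0.25). None of the markers of these 3 lists passed, beside 0.35% of all genes that did. In the deposited values 0 adipocyte markers fell, though 0 of 5 were above 0, and without Hypox replicate 2 only 1 nerve marker fell. None of the 7 general muscle markers passed by limma. Of 5 lung markers only *Sftpc* was measured, and it rose by 0.81 (P-value = 0.0153). The part of these markers in the enzymes' differences was not tested. The arrays lay on 6 slides with 2 Norm and 2 Hypox arrays each, and the mean net Cy5 signal ran from 29.1 on slide 1 to 983 on slide 6. With the slide as a block the same 6 enzymes passed, beside 14.2% of all genes.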

How the data were processed

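The authors isolated total RNA from ground *M. gastrocnemius* of 24 mice and hybridised it on Agilent arrays with 2 colours. They deposited the output of Agilent Feature Extraction 10.7.3.1 for each array, which holds per spot a mean intensity and a local background for each channel, and their own normalized values on a log2 scale, whose scaling is not given in the sources used here. The dye of each RNA follows the sample descriptions, because for some Hypox samples the dye label differs.

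Groups were taken from the sample labels. The mean intensity was corrected with normexp (offset of 50), loess was applied within each array to the log2 ratio of Cy5 over Cy3, control spots and 7260 spot readings marked as outliers were left out, and repeated spots were averaged per probe. Of 55681 probes, 27235 were named by accession, 3581 by symbol and 565 by synonym of RefSeq. Probes with a Cy5 signal over 2 times the background and values missing on at most 4 arrays were kept, which left 14312 probes and 9139 genes, and the brightest probe stood for its gene. The 2 groups were compared with the moderated test of limma over all genes, with Benjamini-Hochberg adjustment. Standard errors and intervals (95%) are those of limma.

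The members, lists, pairs and tests were chosen with earlier results of these data known. Values by group are given for enzymes with an unadjusted P-value under 0.05, the largest difference of each step, and *Cpt1b*, *Hadha*, *Hadhb*, *Acadvl* and *Acadm*, and among other genes of the pathway those with an unadjusted P-value under 0.05 are named. Markers of fiber types and of other cells (adipocyte, nerve, endothelium, red blood cell, lung) were written from general knowledge, and of 3 measured red blood cell markers 0 passed by limma. Alternatives were other signals and normalizations, the deposited values, the methods' t-test, filters, the mean of probes, blocks, array weights and leaving out each array. Leaving out Hypox replicates 2 and 12, with or without Norm replicate 5, was chosen after seeing the data. The fits were run with limma 3.58.1 under R 4.3.3 and tested on simulated data, and the pairs, promoters and plots were computed with numpy 2.4.6, pandas 2.3.3 and matplotlib 3.10.9 in Python 3.11.15. The number of arrays and, for dim probes, the signal over background limit the precision.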

Additional observations from a re-analysis of the deposited data

How the results depend on the processing

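The 6 enzymes that rose kept a positive log2 fold change under every alternative that was run, and the median of the 35 enzymes stayed above 0. The number past the unadjusted threshold was 2 of 35 with the processed signals (11.1% of all genes), 0 with median centring (0.35%), 1 in the deposited values (5.35%) and 2 with the methods' t-test on them (5.65%). The median log2 fold change was 0.45 with median centring and 0.27 in the deposited values, by limma or by the t-test. Array weights brought 2 enzymes, *Acadl* and *Eci2*, past the adjusted threshold, and 277 of all 9139 genes beside 31 in the main values. Leaving out 1 array at a time gave 4 to 8 higher enzymes, 0 to 1 lower, 0 to 1 past the adjusted threshold and a median of 0.04 to 0.09. Without Norm replicate 12, *Ech1* was the 1 past the adjusted threshold (0.47, adjusted P-value = 0.0266). The causes were not tested. Of the 29 enzymes that had not passed, the sign changed in 55 of 432 values under the other settings and in 48 of 696 values with 1 array left out, and 4 and 8 of these values passed.

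The labels number the replicates of both groups from 1 to 12. Deviations of Norm and Hypox arrays of the same number correlated from -0.20 to 0.52, over 0.1 in 3 of 12 pairs, and 2 Norm arrays correlated best with their own number, so the numbers were not taken as pairs. With the replicate block 5 enzymes were higher and 0 lower, beside 13.1% of all genes in either direction. None was past the adjusted threshold, and the median was 0.06. *Cpt1a* (P-value = 0.0573) and *Hadha* (P-value = 0.0568) no longer passed and *Mlycd* did (P-value = 0.0467).

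*Cpt1a* is left out under the filter of 4 times the background. Probes near the background, on the dim arrays of slide 1 above all, carry the least precise ratios.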
